A study of Mus musculus with 30 samples.

Results

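The genes described here are 45 genes of endothelial cells, which line blood vessels and the heart chambers, and of pericytes, which wrap around capillaries. They were chosen by name, with earlier results of these data known, and are 45 of the 20764 genes listed for the hearts. All 45 passed the filter on low counts, as did 15443 genes in all. RNA was sequenced from whole hearts of 18 female C57BL6 mice (of a mixed J/N background) with no genetic change in the labels, 1 library per heart. The mice were young (2 months) or old (12 months), and old mice had drunk plain water (old H2O) or water with nicotinamide riboside (NR) at 3 g/l since the age of 2 months, that is for 10 months (old NR). NR is a form of vitamin B3 from which cells make the cofactor NAD+. Hearts were taken at zeitgeber time 10 (ZT10, late in the light phase) or 22 (ZT22, late in the dark phase), with 3 hearts in each of the 6 groups.

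The endothelium of the heart is mostly capillary endothelium, which lies against the cardiomyocytes and carries fatty acids and oxygen to them. Vascular endothelial growth factor (VEGF), made largely by the parenchyma, acts on receptor kinases of the endothelium, and a second system of angiopoietins and TIE receptors steadies the vessel wall. Notch ligands, ephrins and transcription factors of the SOX, ETS and KLF families set arterial, venous and capillary identity. The genes taken here for pericytes are those of the proteoglycan NG2 (Cspg4), the G protein regulator Rgs5 and a subunit of the ATP-sensitive potassium channel (Abcc9). Whether their counts in whole hearts came from pericytes only was not tested.

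The 18 libraries held between 3922137 and 7562215 counts. Totals differed most in the old groups at ZT22, from 3922137 to 7562215 in old H2O and from 4364594 to 7321880 in old NR. The median total at ZT22 was 5402311 in young, 6122256 in old H2O and 7020472 in old NR. At ZT10 it was 5122703 in young, 4987058 in old H2O and 5962458 in old NR. Counts of densely covered genes did not rise in proportion to the total. On a log scale, the summed counts of genes with up to 0.05 reads per base of exon rose with a slope of 1.27 on the library total. For genes with 0.4 to 0.8 reads per base, 6 of the 45 among them, the slope was 0.682. The library with the smallest total held the highest value of its group for 28 of the 45 genes in old NR at ZT22 (62.2%, against 35.3% of all genes tested) and for 10 in old NR at ZT10 (22.2%, against 31.5%). In young it did so for 21 at ZT10 (46.7%, against 33.4%) and 21 at ZT22 (46.7%, against 35.3%), and in old H2O for 19 at ZT10 (42.2%, against 32.3%) and 19 at ZT22 (42.2%, against 36.6%). With the library total as a covariate, 82 of the 83 calls described below were kept. That fit called more of all genes in every comparison, such as 2606 instead of 2183 for old H2O against young at ZT22. A call was thus more easily kept there, and the part of library totals in the calls was not tested. Counts are given as normalised read counts, scaled for library size and composition to a library of average size, in the order of hearts 1 to 3, and their n is 3 hearts per group throughout.

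Per length of exon, the levels of the 45 genes ran from 3.12 to 123 CPM per kilobase of exon (CPM is a count scaled to a common library total) as means over the 18 hearts. Rgs5 was highest at 123 (100.3 to 139 over the hearts), followed by the growth factor Vegfa at 110.02 (88.7 to 143), Abcc9 at 82.2 and the adherens junction cadherin Cdh5 at 80.2. The lowest were the endothelin precursor Edn1 at 5.56, Cspg4 at 4.97 and the TIE2 ligand Angpt2 at 3.12 CPM per kilobase. Rgs5, Vegfa, Abcc9 and Cdh5 are among the densely covered genes. The coefficient of variation between hearts of a group, averaged over the groups, was lowest for Tek (3.69%) and highest for Plvap (22.2%).

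In HL-1 cells, a mouse cardiomyocyte line grown without vessels and sequenced in 3 untreated cultures (25511707 to 29011104 counts), 17 of the 45 genes reached a level of 1 CPM in every culture. Cdh5, Cldn5, Robo4, Erg, Sox17, Gpihbp1, Car4, Rgs5 and Angpt1 had 0 counts in all 3, which allows a level of up to 0.118 CPM (3 counts in the smallest of these libraries, counting error only). The other end was held by Nrp2 (613, 552 and 495 CPM), Efnb2 (452, 430 and 436) and Vegfa (308, 303 and 282). Nrp1, Flt1, Eng, Ephb4, Hey1, Ets1, Klf2 and Klf4 were also among the 17 genes that these cells expressed. No marker gene used to name the tissue was missing, and none of the 8 cardiomyocyte markers was called between the groups within a time. In old NR at ZT10 all 8 lay below 0, with a median difference of -0.24 against young and -0.19 against old H2O, and 1 of them had an unadjusted p under 0.05 against young. Ly6a and Ly6c1 belong to a family of near-identical neighbours, and in the hearts reads that mapped to several places were removed before counting, so that reads common to such copies are not in their counts.

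The 45 genes were compared between young, old H2O and old NR hearts at each time with edgeR's quasi-likelihood test and Benjamini-Hochberg adjustment over all 15443 genes, and those with an adjusted p under 0.05 are called changed. Differences are log2 fold changes, negative where the first-named group was lower. Old H2O was compared both with young and with old NR, and young with both old groups, so these comparisons share hearts and their values are given side by side. For each call, "kept 6 of 6" gives in how many fits that left out 1 heart of the groups compared the gene was still called, and hearts are named where no more than 2 each decided a call. Nothing in the labels says more of the hearts than that they are separate samples. The paper states that NR was given to randomized cages of several mice. Which hearts shared a cage is not stated, so the p-values take hearts as separate and do not allow for shared cages.

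Fewer of the 45 genes were called for age at ZT10 than at ZT22, and the same held for all genes tested. In old H2O against young, 13.3% of the 45 were called at ZT10 (5.87% of all genes tested) and 35.6% at ZT22 (14.1%). In old NR against young they were 8.89% at ZT10 (4.28% of all genes tested) and 51.1% at ZT22 (14.2%). In old H2O against young at ZT10, 6 of the 45 genes were called, 2 higher (2.95% of all genes tested) and 4 lower (2.92%), and the median difference was -0.02. At ZT22, 16 were called, 1 higher (7.96% of all genes tested) and 15 lower (6.17%). The median difference at ZT22 was -0.19 over the 45 genes and -0.00 over all genes, and 39 of the 45 lay below 0. In old NR against young, 1 gene was called higher at ZT10 (2.38% of all genes tested) and 3 lower (1.9%), and at ZT22 23 were called lower (6.58%) and 0 higher (7.6%). Here the median difference at ZT22 was -0.23 and 42 of the 45 genes lay below 0. For the smaller lists of genes below, the shares of all genes tested in the same comparison are those given here. In lists this small, 1 call changes the share much. Leaving out young heart 3 at ZT22 took the count for old H2O at ZT22 from 16 to 5, and leaving out old NR heart 2 at ZT22 took that for old NR from 23 to 10. Counts from whole hearts are relative to all RNA in the library. Fewer endothelial cells or pericytes, less RNA per cell and more RNA from other cells cannot be told apart.

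**Figure D1:**
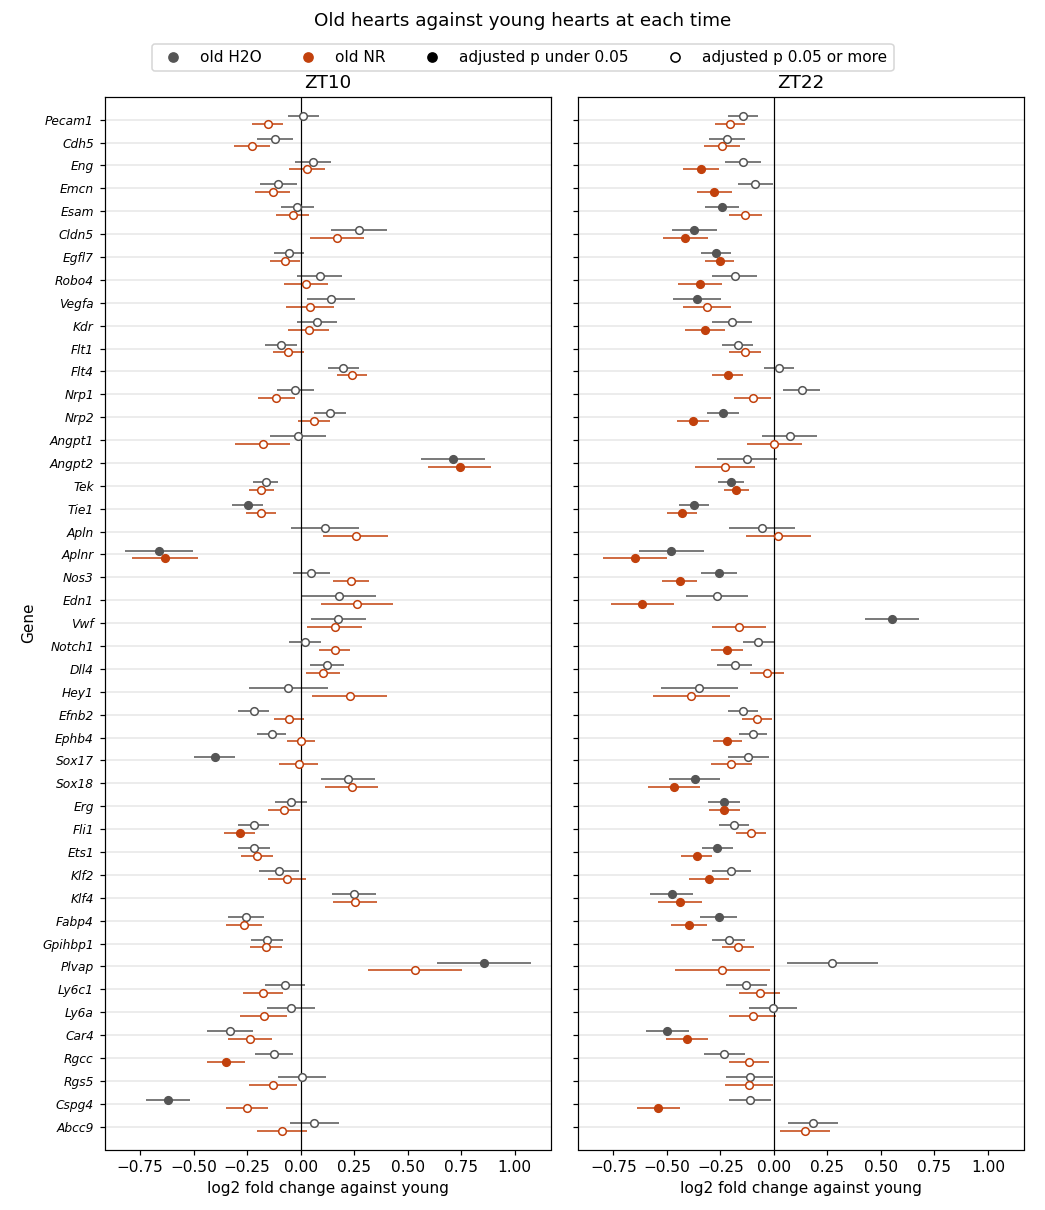
Log2 fold change against young (x axis, bars are the standard error) of each of the 45 genes (y axis) at ZT10 (left) and ZT22 (right), for old H2O and old NR, with filled points at an adjusted p under 0.05. At ZT10 the points lie on both sides of 0, and at ZT22 39 of 45 old H2O points and 42 of 45 old NR points lie below 0.

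Few of the 45 genes were called between old NR and old H2O hearts, and few of all genes were. At ZT10, 0 genes were called by edgeR (0.285% of all genes tested) and 0 by DESeq2. In edgeR, 7 of the 45 genes had an unadjusted p under 0.05 there, and 1565 of all 15443 genes. At ZT22, 1 gene was called, Vwf (0.35% of all genes tested). Here 9 of the 45 genes had an unadjusted p under 0.05, and 1737 of all 15443 genes. The median difference was -0.02 at ZT10 and -0.07 at ZT22. Between ZT10 and ZT22, 11 of the 45 genes were called in young hearts, 2 higher at ZT10 (6.8% of all genes tested) and 9 lower (7.57%). In old H2O 6 were called, 2 higher (1.56%) and 4 lower (2.64%), and in old NR 9, 7 higher (2.36%) and 2 lower (3.01%). The age difference at ZT10 minus that at ZT22, the interaction of age and time, was called for 6 genes, 5 above 0 (3.13% of all genes tested) and 1 below (3.76%), and the same for NR against H2O for 1 gene (0.343%).

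**Figure D2:**
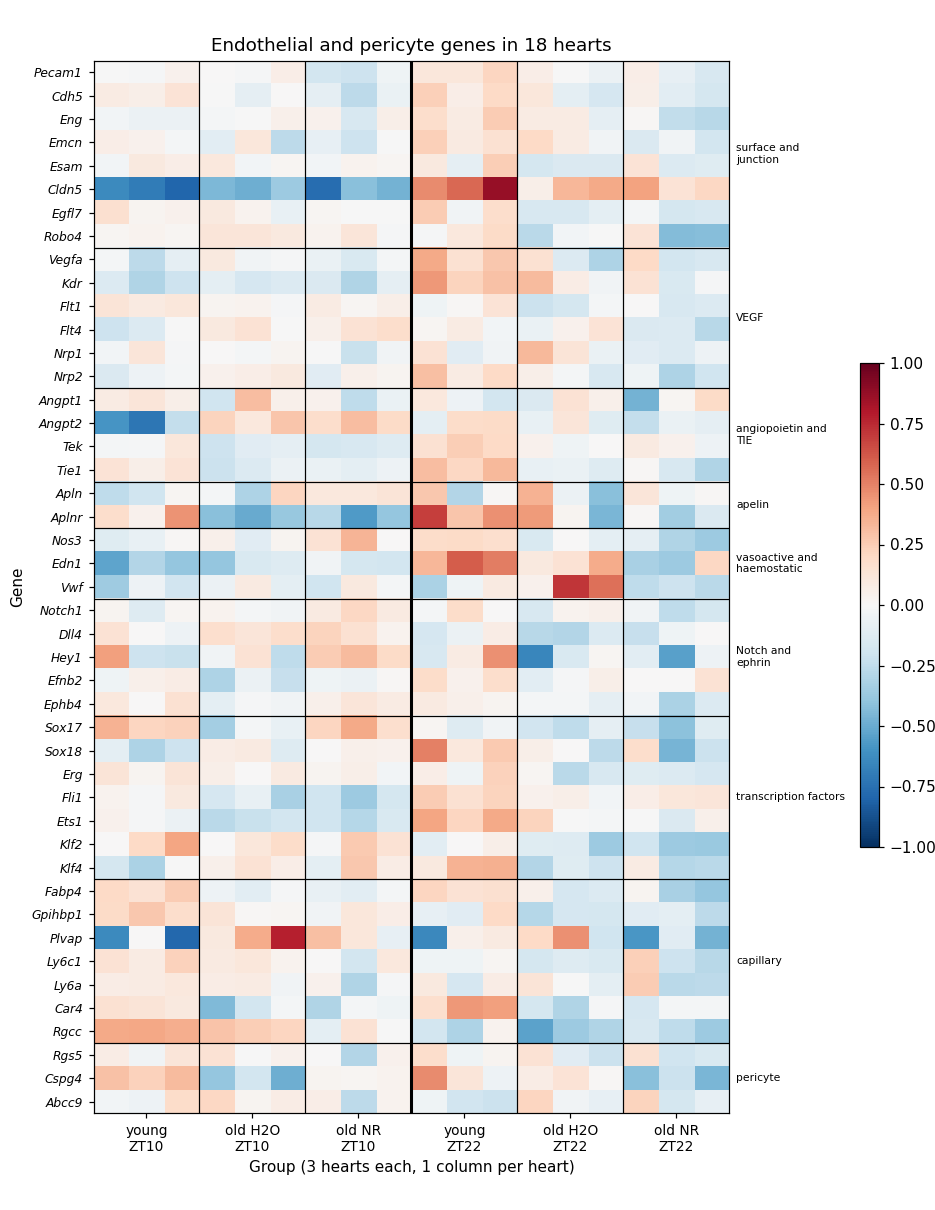
Log2 ratio of each heart's normalised read count to the mean of the 6 group means (colour), for the 45 genes (rows, by role) in the 18 hearts (columns, 3 per group). At ZT22, 12 rows are redder in every young heart than in any old one, and the row of Cldn5 separates the times.

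Of the 8 surface and junction genes, 0 were called at ZT10 in either old group. At ZT22, 3 were lower in old H2O (Cldn5, Egfl7 and Esam) and 5 in old NR (Cldn5, Egfl7, Eng, Emcn and Robo4). Cldn5, the claudin that seals endothelial tight junctions (ENSMUSG00000041378, chr16:18776847-18778262, plus strand of mm10), showed the largest difference between times of all 45 genes. Its counts at ZT10 were 129, 123 and 116 in the young, 147, 143 and 156 in the old H2O and 118, 150.2 and 144 in the old NR hearts. Its counts at ZT22 were 279, 298 and 368 in the young, 209, 253 and 261 in the old H2O and 265, 221 and 232 in the old NR hearts. Every heart at ZT22 lay above every heart at ZT10, and at ZT22 every old heart lay below every young one. ZT10 against ZT22, the difference was -1.36 (SE 0.12, adjusted p = 5.69e-08, kept 6 of 6) in young, -0.72 (SE 0.12, adjusted p = 0.000689, kept 6 of 6) in old H2O and -0.78 (SE 0.11, adjusted p = 0.000148, kept 6 of 6) in old NR. At ZT22, Cldn5 was lower than in young, with a difference of -0.37 (SE 0.10, adjusted p = 0.0213, kept 4 of 6, lost without young heart 3 at ZT22 or old H2O heart 1 at ZT22) in old H2O and -0.41 (SE 0.10, adjusted p = 0.0103, kept 4 of 6, lost without young heart 3 at ZT22 or old NR heart 2 at ZT22) in old NR. The interaction of age and time was 0.64 (SE 0.17, adjusted p = 0.0214, kept 9 of 12).

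Egfl7, a secreted protein of the endothelial matrix (chr2:26580014-26593120, plus strand), had counts at ZT22 of 767, 627 and 725 in the young, 575, 574 and 599 in the old H2O and 634, 570.4 and 575 in the old NR hearts. The old H2O hearts lay below all young hearts, and old NR heart 1 lay just above young heart 2. The differences were -0.27 (SE 0.07, adjusted p = 0.0122, kept 5 of 6, lost without young heart 1 at ZT22) and -0.25 (SE 0.07, adjusted p = 0.0172, kept 2 of 6). Esam, an adhesion molecule of endothelial junctions, changed by -0.24 (SE 0.08, adjusted p = 0.0399, kept 1 of 6) in old H2O at ZT22 and measured -0.13 in old NR, which was not called. Endoglin (Eng, chr2:32646595-32682669, plus strand), a co-receptor for bone morphogenetic proteins, had counts at ZT22 of 1910, 1795 and 2016 in the young, 1796, 1796 and 1587 in the old H2O and 1711, 1426 and 1394 in the old NR hearts. Old NR lay below young without overlap, with a difference of -0.34 (SE 0.08, adjusted p = 0.00829, kept 4 of 6, lost without old NR heart 2 at ZT22 or old NR heart 3 at ZT22). The sialomucin Emcn of capillaries and veins (chr3:137341067-137432185, plus strand) had counts of 522, 473 and 493 in the young and 401, 432 and 389.7 in the old NR hearts at ZT22, again without overlap, a difference of -0.28 (SE 0.08, adjusted p = 0.0271, kept 2 of 6). For Robo4, a guidance receptor of endothelium (chr9:37401897-37415115, plus strand), they were 554, 602 and 639 in the young and 614, 415 and 415 in the old NR hearts. Old NR hearts 2 and 3 were low while heart 1 lay within the young range, and the difference was -0.34 (SE 0.10, adjusted p = 0.0299, kept 2 of 6). Pecam1 and Cdh5, the commonest markers of endothelium, were called in none of the comparisons, with differences at ZT22 of -0.14 and -0.22 in old H2O and -0.20 and -0.24 in old NR.

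Of the 6 genes of the VEGF system, 0 were called against young at ZT10, 2 were lower in old H2O at ZT22 (Vegfa and Nrp2) and 3 in old NR (Kdr, Flt4 and Nrp2). Vegfa, the main VEGF ligand of the heart (chr17:46016993-46032369, minus strand), had counts at ZT22 of 3478, 2962 and 3220.4 in the young, 2959, 2427 and 2153 in the old H2O and 3056, 2346 and 2389.8 in the old NR hearts. The old H2O hearts lay below all young hearts, and in both old groups heart 1, the library with the smallest total, stood above the others. Old H2O differed from young by -0.36 (SE 0.11, adjusted p = 0.0344, kept 2 of 6), and old NR by -0.31 (SE 0.11, adjusted p = 0.067), which was not called. In young hearts, Vegfa counted 2627, 2221 and 2512 at ZT10 and 3478, 2962 and 3220.4 at ZT22, lower at ZT10, with a difference of -0.39 (SE 0.11, adjusted p = 0.021, kept 2 of 6). Kdr, which encodes VEGF receptor 2 (chr5:75932827-75978458, minus strand), followed the same order, with 2003, 1787 and 1904 at ZT10 and 2966, 2565 and 2698 at ZT22 in young hearts and no overlap between times. The difference between times in young was -0.53 (SE 0.10, adjusted p = 0.000545, kept 6 of 6). At ZT22, the old H2O hearts had 2742, 2317 and 2144 and the old NR hearts 2425, 1981 and 2181 Kdr counts. Kdr was lower in old NR than in young at ZT22, with a difference of -0.32 (SE 0.09, adjusted p = 0.0251, kept 2 of 6), and old H2O, whose heart 1 overlapped young, measured -0.19 (SE 0.09, adjusted p = 0.184).

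Flt4, VEGF receptor 3, which is also a receptor of lymphatic endothelium (chr11:49609263-49652739, plus strand), had counts of 375, 391 and 363 in the young and 334, 336 and 304 in the old NR hearts at ZT22, without overlap. It was lower in old NR, with a difference of -0.22 (SE 0.07, adjusted p = 0.0464, kept 0 of 6). At ZT10 old NR had 384, 407 and 416 Flt4 counts, higher than at ZT22, with a difference of 0.31 (SE 0.07, adjusted p = 0.00895, kept 4 of 6, lost without old NR heart 3 at ZT10 or old NR heart 3 at ZT22). At ZT10 all 6 old hearts had more Flt4 counts than the 3 young ones, which was not called (adjusted p = 0.115 in old H2O and 0.0582 in old NR). Beside it, the summed markers of lymphatic endothelium at ZT22 ran from 315 to 342 CPM in young, from 374 to 437 in old H2O and from 338 to 382 in old NR. Of the 5 markers, 2 were called higher in old H2O, and Prox1 was the most abundant. Which cells of the whole heart these marker counts came from was not tested. The part of lymphatic endothelium in the Flt4 counts was not tested either. Flt1, the decoy-like VEGF receptor 1, and Nrp1 were called in no comparison.

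Nrp2, a co-receptor for VEGF and semaphorins (chr1:62703285-62818695, plus strand), had counts at ZT10 of 710.4, 759 and 775 in the young, 809, 820.4 and 840.4 in the old H2O and 728, 815 and 800.5 in the old NR hearts. At ZT22 they were 967, 832 and 899.7 in the young, 815, 774 and 703 in the old H2O and 763, 636 and 683 in the old NR hearts. At ZT22 all 6 old hearts lay below the 3 young hearts, with a difference of -0.24 (SE 0.07, adjusted p = 0.0345, kept 2 of 6) in old H2O and -0.38 (SE 0.07, adjusted p = 0.0015, kept 6 of 6) in old NR. In young hearts Nrp2 was lower at ZT10 than at ZT22, with a difference of -0.26 (SE 0.07, adjusted p = 0.0196, kept 3 of 6). The age difference differed between the times by 0.38 (SE 0.11, adjusted p = 0.0332, kept 3 of 12). Promoters were searched in RefSeq windows of 250 bases before the start (GRCm38.p6) for CACGTG, the E-box bound by the clock factors, and for CACACCC, bound by KLF proteins, on both strands. Windows were found for 28 of the 45 genes, 34 windows in all. CACGTG was in 1 of the 34 (Klf4) against 6.02% of all 32851 windows, and CACACCC in 2 (Nrp2 and Tie1) against 6.93%. For Tie1 the match lay within the annotated gene. The other matches are shown because both genes were called at ZT22 and between times, with the motif in capitals and only the bases before the gene's annotated start. A match is a description of the letters and not of binding. For Nrp2 the bases are chr1:62703067-62703284, plus strand, and for Klf4 chr4:55532476-55532725, minus strand.
Nrp2: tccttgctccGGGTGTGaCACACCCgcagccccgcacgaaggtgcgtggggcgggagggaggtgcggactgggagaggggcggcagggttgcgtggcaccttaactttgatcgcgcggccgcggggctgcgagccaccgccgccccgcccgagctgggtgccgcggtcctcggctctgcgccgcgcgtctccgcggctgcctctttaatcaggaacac
Klf4: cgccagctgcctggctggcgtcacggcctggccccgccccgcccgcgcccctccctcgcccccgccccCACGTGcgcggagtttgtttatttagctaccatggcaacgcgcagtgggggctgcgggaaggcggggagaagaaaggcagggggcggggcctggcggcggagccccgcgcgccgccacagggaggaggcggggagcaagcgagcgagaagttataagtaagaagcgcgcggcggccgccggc

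Among the 4 angiopoietin and TIE genes, Tie1, the orphan receptor partner of TIE2 (ENSMUSG00000033191, chr4:118471191-118490061, minus strand), had the smallest adjusted p for age of the 45 genes in old NR at ZT22. Its counts at ZT10 were 1339.6, 1265 and 1339 in the young, 1048, 1104 and 1168 in the old H2O and 1159, 1134 and 1176 in the old NR hearts. Its counts at ZT22 were 1507, 1400.2 and 1521 in the young, 1152, 1159 and 1109 in the old H2O and 1227, 1088 and 987 in the old NR hearts. At each time every old heart lay below every young one. The difference was -0.25 (SE 0.07, adjusted p = 0.0429, kept 0 of 6) in old H2O at ZT10 and -0.37 (SE 0.07, adjusted p = 0.00133, kept 6 of 6) at ZT22. In old NR at ZT22 it was -0.43 (SE 0.07, adjusted p = 0.000346, kept 6 of 6). In old NR at ZT10 it was -0.19 (SE 0.07, adjusted p = 0.157), which was not called. Tek, which encodes TIE2 (chr4:94739289-94874976, plus strand), had counts at ZT22 of 1019, 1084 and 1052 in the young, 945, 887 and 919.7 in the old H2O and 972, 941 and 886 in the old NR hearts, with all old hearts below all young ones. The differences were -0.20 (SE 0.06, adjusted p = 0.0266, kept 2 of 6) and -0.18 (SE 0.06, adjusted p = 0.0478, kept 1 of 6).

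Angpt2, an antagonist of TIE2 that endothelial cells release (ENSMUSG00000031465, chr8:18690263-18741562, minus strand), went the other way at ZT10, with counts of 43.4, 39.4 and 55.3 in the young, 75.9, 70 and 79 in the old H2O and 73.7, 80.8 and 74.5 in the old NR hearts. All 6 old hearts lay above the 3 young ones, with a difference of 0.71 (SE 0.15, adjusted p = 0.00637, kept 6 of 6) in old H2O and 0.74 (SE 0.15, adjusted p = 0.00469, kept 6 of 6) in old NR. At ZT22 the counts were 60.8, 74.1 and 74.2 in the young, 61.7, 71 and 60 in the old H2O and 55.1, 62.1 and 61.1 in the old NR hearts, and the groups overlapped. In young hearts Angpt2 was lower at ZT10 than at ZT22, with a difference of -0.62 (SE 0.15, adjusted p = 0.00766, kept 5 of 6, lost without young heart 2 at ZT10). Its interaction of age and time was 0.84 (SE 0.21, adjusted p = 0.0159, kept 11 of 12, lost without young heart 2 at ZT10). Angpt1, the TIE2 agonist of mural cells, was called in no comparison.

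Aplnr, the receptor for apelin (ENSMUSG00000044338, chr2:85136225-85139923, plus strand), was lower in both old groups at both times. At ZT10 its counts were 514, 468 and 623 in the young, 341, 320.5 and 349.9 in the old H2O and 376, 308 and 349 in the old NR hearts, and all old hearts lay below all young ones. The differences at ZT10 were -0.66 (SE 0.16, adjusted p = 0.0148, kept 4 of 6, lost without young heart 3 at ZT10 or old H2O heart 2 at ZT10) in old H2O and -0.64 (SE 0.16, adjusted p = 0.0208, kept 3 of 6) in old NR. At ZT22 the counts were 738, 552 and 626 in the young, 611, 465 and 333 in the old H2O and 459, 358 and 412 in the old NR hearts. Old H2O heart 1, the smallest library, lay within the young range, while the old NR hearts lay below it. Here the differences were -0.48 (SE 0.15, adjusted p = 0.0356, kept 2 of 6) and -0.65 (SE 0.15, adjusted p = 0.00561, kept 6 of 6). Its ligand Apln was called in no comparison, with a range of 165 to 280 counts over the 18 hearts.

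Of the 3 vasoactive and haemostatic genes, Vwf, the carrier of clotting factor VIII and an adhesive protein for platelets (ENSMUSG00000001930, chr6:125546774-125686679, plus strand), was the 1 gene higher in old H2O than in young at ZT22 and the 1 gene called between old NR and old H2O. Its counts at ZT22 were 905, 1094 and 1199.6 in the young, 1163, 1852 and 1653 in the old H2O and 948, 976 and 939 in the old NR hearts. Old H2O hearts 2 and 3 stood above all other hearts, heart 1 lay within the young range, and the old NR hearts lay below every old H2O heart. The difference was 0.55 (SE 0.13, adjusted p = 0.00531, kept 6 of 6) for old H2O against young. For old NR against old H2O it was -0.71 (SE 0.13, adjusted p = 0.0111, kept 4 of 6, lost without old H2O heart 2 at ZT22 or old NR heart 2 at ZT22). At ZT10 the old H2O hearts had 1082, 1205 and 1055 Vwf counts, lower than at ZT22, with a difference of -0.49 (SE 0.13, adjusted p = 0.0275, kept 2 of 6). The summed endocardial markers, of which Npr3 is the most abundant, ran at ZT22 from 65.6 to 124 CPM in young, from 114 to 175 in old H2O and from 98.4 to 149 in old NR. Of the 3 markers, 1 was called higher in old H2O and 0 between old NR and old H2O. Within old H2O at ZT22 their sum was 114, 175 and 139.9 in hearts 1 to 3. Atrial markers were uneven within that group too, at 168, 641 and 187 CPM. Their part in the Vwf counts was not tested.

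Nos3, the endothelial nitric oxide synthase (chr5:24364810-24384474, plus strand), had counts at ZT22 of 359.9, 362 and 356 in the young, 286, 318 and 296 in the old H2O and 298, 258 and 247 in the old NR hearts, all old hearts below all young ones. It was lower, with a difference of -0.26 (SE 0.08, adjusted p = 0.0426, kept 0 of 6) in old H2O and -0.44 (SE 0.08, adjusted p = 0.00114, kept 6 of 6) in old NR. In old NR it was higher at ZT10, with 351, 401 and 318 counts, with a difference of 0.43 (SE 0.08, adjusted p = 0.00226, kept 6 of 6). Edn1, the precursor of the vasoconstrictor endothelin (chr13:42301476-42307990, plus strand), was lower at ZT10 in young hearts, with 46.7, 54.9 and 51.5 at ZT10 and 84.9, 102 and 96.1 at ZT22, without overlap and with a difference of -0.89 (SE 0.16, adjusted p = 0.000538, kept 6 of 6). At ZT22 the old NR hearts had 53.7, 52.4 and 77.8 Edn1 counts, below every young heart, with a difference of -0.61 (SE 0.15, adjusted p = 0.008, kept 5 of 6, lost without old NR heart 2 at ZT22). The old H2O hearts had 72.2, 74.6 and 87.1, with an overlap with young and a difference of -0.27 (SE 0.15, adjusted p = 0.247).

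**Figure D3:**
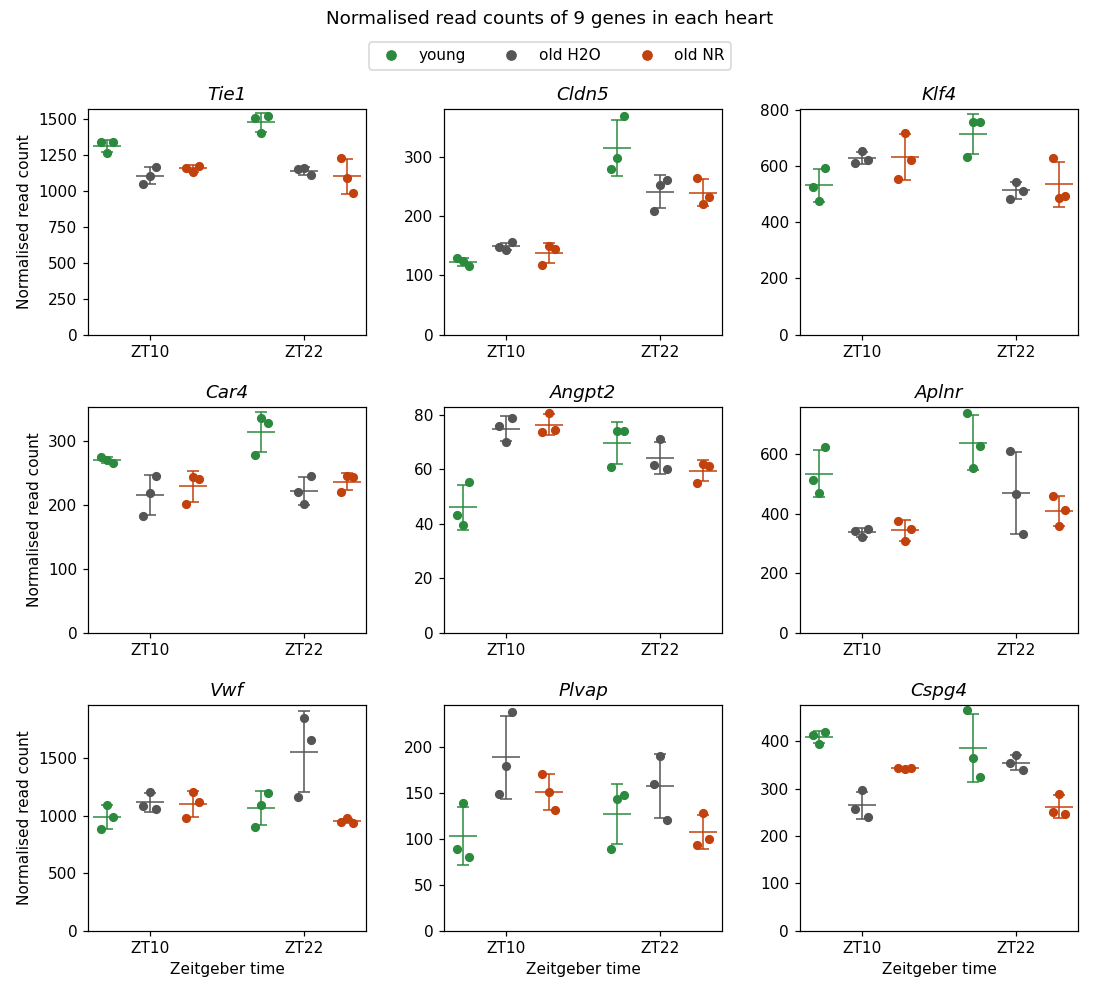
Normalised read counts (y axis, from 0) of 9 genes in each heart (points) by zeitgeber time and group, with the mean and SD of 3 hearts. Tie1 lies lower in all old hearts at both times, Cldn5 higher in all hearts at ZT22, Angpt2 higher in all old hearts at ZT10, and Vwf highest in old H2O hearts 2 and 3 at ZT22.

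Of the 5 Notch and ephrin genes, 0 were called for age in old H2O at either time and 2 were lower in old NR at ZT22. All 5 lay below 0 at ZT22 in both old groups, with a median of -0.14 in old H2O and -0.22 in old NR. Ephb4, the receptor tyrosine kinase of venous endothelium (chr5:137350109-137378669, plus strand), had counts of 911, 885 and 871 in the young and 841, 688 and 776 in the old NR hearts at ZT22, without overlap. The difference was -0.22 (SE 0.07, adjusted p = 0.0311, kept 1 of 6). Notch1 (chr2:26457903-26516663, minus strand) had 605, 697 and 614 in the young and 599, 515 and 544 in the old NR hearts, also without overlap, a difference of -0.22 (SE 0.07, adjusted p = 0.0487, kept 2 of 6). In old NR at ZT10 the counts were 888, 932 and 907 for Ephb4 and 652, 708 and 654 for Notch1, higher than at ZT22, with a difference of 0.25 (SE 0.07, adjusted p = 0.0257, kept 1 of 6) and 0.29 (SE 0.07, adjusted p = 0.0187, kept 3 of 6). The Notch ligand of tip and arterial cells, Dll4 (chr2:119325784-119335962, plus strand), was higher at ZT10 in old H2O, with 332, 321 and 334 at ZT10 and 244, 240.2 and 268 at ZT22, with a difference of 0.38 (SE 0.08, adjusted p = 0.00706, kept 6 of 6). The Notch target Hey1 and the arterial ephrin Efnb2 were called in no comparison.

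Of the 7 transcription factors, 4 were lower in old H2O at ZT22 (Sox18, Erg, Ets1 and Klf4) and 5 in old NR (Sox18, Erg, Ets1, Klf2 and Klf4). Klf4, a zinc finger factor induced by shear stress (ENSMUSG00000003032, chr4:55527143-55532466, minus strand), had counts at ZT10 of 525, 477 and 593 in the young, 613, 654 and 622 in the old H2O and 553, 717 and 624 in the old NR hearts. At ZT22 they were 634, 756 and 759 in the young, 484, 544 and 513 in the old H2O and 628, 487 and 493 in the old NR hearts. At ZT10 the young hearts were the lowest by their mean, and at ZT22 every young heart lay above every old one. At ZT22 the differences from young were -0.48 (SE 0.10, adjusted p = 0.00325, kept 6 of 6) in old H2O and -0.44 (SE 0.10, adjusted p = 0.00551, kept 6 of 6) in old NR. In young hearts Klf4 was lower at ZT10 than at ZT22, with a difference of -0.44 (SE 0.10, adjusted p = 0.00551, kept 6 of 6). The age difference differed between the times by 0.73 (SE 0.15, adjusted p = 0.00437, kept 12 of 12). Its E-box promoter is printed above. Klf2, the related flow-induced factor (chr8:72319033-72321656, plus strand), had counts of 526, 566 and 587 in the young and 493, 440.2 and 437 in the old NR hearts at ZT22, without overlap, a difference of -0.30 (SE 0.09, adjusted p = 0.0324, kept 2 of 6). In old NR at ZT10 it had 561, 678 and 625, above ZT22, with a difference of 0.45 (SE 0.09, adjusted p = 0.00363, kept 6 of 6).

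Klf4, Klf2 and Edn1 respond fast to stimuli, and a list of 11 immediate early genes, Dusp1 being the most abundant, was set beside them. Their sum at ZT22 ran from 419 to 743 CPM in young, from 346 to 399 in old H2O and from 310 to 348 in old NR. Against young, 5 of 11 were called lower in old H2O and 7 of 11 in old NR. At ZT10 it ran from 378 to 476 in young, 398 to 516 in old H2O and 349 to 454 in old NR, and 1 of 11 was called higher in old H2O and 0 in old NR. Their part in the counts of these genes was not tested.

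Ets1, a founding ETS factor (chr9:32636221-32757820, plus strand), had counts at ZT22 of 1239.5, 1094 and 1228 in the young, 1104, 944 and 931 in the old H2O and 941, 854 and 980.2 in the old NR hearts. Only old H2O heart 1 reached the young range. The differences were -0.26 (SE 0.07, adjusted p = 0.019, kept 2 of 6) and -0.36 (SE 0.07, adjusted p = 0.00194, kept 6 of 6). At ZT10 the counts were 974, 939 and 907 in young and 784, 808 and 833 in old H2O, lower than at ZT22, with a difference of -0.34 (SE 0.07, adjusted p = 0.00325, kept 6 of 6) and -0.29 (SE 0.07, adjusted p = 0.0287, kept 2 of 6). Sox18, an SRY-related factor of vessels and lymphatics (chr2:181669836-181671640, minus strand), had counts at ZT22 of 513, 389 and 435 in the young, 376, 362 and 301 in the old H2O and 408, 263 and 311 in the old NR hearts, where old NR heart 1 lay within the young range. Its differences at ZT22 were -0.37 (SE 0.12, adjusted p = 0.0424, kept 2 of 6) in old H2O and -0.47 (SE 0.12, adjusted p = 0.0117, kept 4 of 6, lost without young heart 1 at ZT22 or old NR heart 2 at ZT22) in old NR. With 338, 292 and 313 counts in young at ZT10, it was lower there, with a difference of -0.50 (SE 0.12, adjusted p = 0.0083, kept 6 of 6). Its interaction of age and time was 0.59 (SE 0.17, adjusted p = 0.0424, kept 4 of 12).

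Sox17, the arterial SOX factor (chr1:4490931-4497354, minus strand), had counts at ZT10 of 267, 244 and 246 in the young, 166, 206 and 199 in the old H2O and 243, 272 and 235 in the old NR hearts. Only the old H2O hearts were low, below every young and every old NR heart. Old H2O differed from young by -0.40 (SE 0.10, adjusted p = 0.0151, kept 4 of 6, lost without young heart 1 at ZT10 or old H2O heart 1 at ZT10), and old NR from old H2O by 0.39 (SE 0.09, adjusted p = 0.083), which was not called. The gene was higher at ZT10 than at ZT22 in young (212, 191 and 204 at ZT22), with a difference of 0.32 (SE 0.10, adjusted p = 0.0255, kept 2 of 6) and in old NR (179, 157 and 193 at ZT22), with a difference of 0.51 (SE 0.09, adjusted p = 0.00164, kept 6 of 6). Fli1, an ETS factor of endothelium and blood (chr9:32422204-32542861, minus strand), had counts at ZT10 of 305, 294 and 319 in the young, 265, 283 and 237 in the old H2O and 258, 232 and 264 in the old NR hearts. All old hearts lay below all young ones, and the call was made in old NR, -0.29 (SE 0.07, adjusted p = 0.0258, kept 2 of 6), and not in old H2O, -0.22 (SE 0.07, adjusted p = 0.0853). In old NR it was lower at ZT10 than at ZT22 (312, 321 and 323), with a difference of -0.35 (SE 0.07, adjusted p = 0.00386, kept 6 of 6). Erg, another ETS factor, was lower at ZT22, with a difference of -0.23 (SE 0.07, adjusted p = 0.0396, kept 2 of 6) in old H2O and -0.23 (SE 0.07, adjusted p = 0.0395, kept 1 of 6) in old NR. The latter was the call lost with the library total as a covariate.

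In the group of 7 capillary genes, Car4, the carbonic anhydrase on the surface of capillary endothelium (ENSMUSG00000000805, chr11:84957786-84966044, plus strand), had counts at ZT22 of 278, 335 and 328 in the young, 219.6, 201 and 245 in the old H2O and 220.2, 245 and 244 in the old NR hearts. All old hearts lay below all young ones, and leaving out any 1 heart kept both calls. The differences were -0.50 (SE 0.10, adjusted p = 0.0023, kept 6 of 6) in old H2O and -0.41 (SE 0.10, adjusted p = 0.00856, kept 6 of 6) in old NR. Fabp4, a fatty acid binding protein of capillaries and adipocytes (chr3:10204088-10208576, minus strand), had counts at ZT22 of 1549, 1476 and 1496 in the young, 1384, 1192 and 1213 in the old H2O and 1360.2, 1067 and 1022 in the old NR hearts, without overlap between ages. It was lower, with a difference of -0.26 (SE 0.08, adjusted p = 0.0445, kept 1 of 6) and -0.40 (SE 0.09, adjusted p = 0.00309, kept 6 of 6). None of the 4 adipocyte markers tested was called in the comparisons within a time. Gpihbp1, which holds lipoprotein lipase on the capillary wall, and the surface proteins Ly6c1 and Ly6a were called in no comparison. Gpihbp1 measured -0.21 in old H2O and -0.17 in old NR at ZT22.

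Rgcc, a regulator of the cell cycle (chr14:79288756-79301645, minus strand), was higher at ZT10 in young hearts, with 280.1, 282 and 278 at ZT10 and 190.1, 174 and 222 at ZT22, with a difference of 0.52 (SE 0.09, adjusted p = 0.000418, kept 6 of 6). Old H2O hearts had 263, 256 and 251 at ZT10 and 149, 168 and 176 at ZT22, a difference of 0.63 (SE 0.09, adjusted p = 0.000282, kept 6 of 6). In old NR the counts were 202, 239 and 216 at ZT10 and 193, 181 and 168 at ZT22, every ZT10 heart above every ZT22 heart, and the difference of 0.29 (SE 0.09, adjusted p = 0.0657) was not called. At ZT10 Rgcc was lower in old NR than in young, with a difference of -0.35 (SE 0.09, adjusted p = 0.0242, kept 1 of 6). Plvap, the diaphragm protein of fenestrated, venous and endocardial endothelium (ENSMUSG00000034845, chr8:71497765-71511752, minus strand), had counts at ZT10 of 88.9, 139 and 80.4 in the young, 148, 179 and 237 in the old H2O and 171, 150.2 and 131 in the old NR hearts. Every old H2O heart lay above every young heart, with young heart 2 close to old H2O heart 1. The difference was 0.86 (SE 0.22, adjusted p = 0.022, kept 3 of 6). In old NR it was 0.53 (SE 0.22, adjusted p = 0.198), which was not called. The endocardial sum at ZT10 ran from 80.8 to 99 CPM in young, from 119 to 162 in old H2O and from 111 to 122 in old NR. Of the 3 markers, 1 was called higher in old H2O. The summed atrial markers, Myl4 being the most abundant, were at ZT10 879, 234 and 198 CPM in the young, 495, 478 and 642 in the old H2O and 163, 158 and 165 in the old NR hearts. Of the 6 atrial markers 0 were called against young in either old group, and 3 were lower in old NR than in old H2O. The part of either list in the Plvap counts was not tested.

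Cspg4, 1 of the 3 pericyte genes (ENSMUSG00000032911, chr9:56865033-56899870, plus strand), was the 1 gene with a called interaction of NR and time. Its counts at ZT10 were 412, 394 and 418 in the young, 257, 296 and 239 in the old H2O and 343, 340.3 and 344 in the old NR hearts. The 3 groups did not overlap, with young highest, old NR between and old H2O lowest. At ZT22 the counts were 465, 365 and 325 in the young, 354, 370.3 and 338 in the old H2O and 251, 289 and 245 in the old NR hearts, and now the old NR hearts lay below all others. Old H2O was lower than young at ZT10, with a difference of -0.62 (SE 0.10, adjusted p = 0.000783, kept 6 of 6). Old NR was lower than young at ZT22, with a difference of -0.54 (SE 0.10, adjusted p = 0.000979, kept 6 of 6). Old NR against old H2O measured 0.37 (SE 0.10, adjusted p = 0.158) at ZT10 and -0.43 (SE 0.10, adjusted p = 0.0686) at ZT22, neither called. These differed from each other by 0.79 (SE 0.14, adjusted p = 0.0155, kept 11 of 12, lost without old H2O heart 3 at ZT10). Between times the difference was -0.41 (SE 0.10, adjusted p = 0.0232, kept 3 of 6) in old H2O and 0.38 (SE 0.10, adjusted p = 0.0269, kept 1 of 6) in old NR. The age difference differed between the times by -0.51 (SE 0.14, adjusted p = 0.0335, kept 4 of 12). Rgs5 and Abcc9 were called in no comparison and had differences from young between -0.13 and 0.18. Which cells of the heart the Rgs5 and Abcc9 counts came from was not tested.

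**Figure D4:**
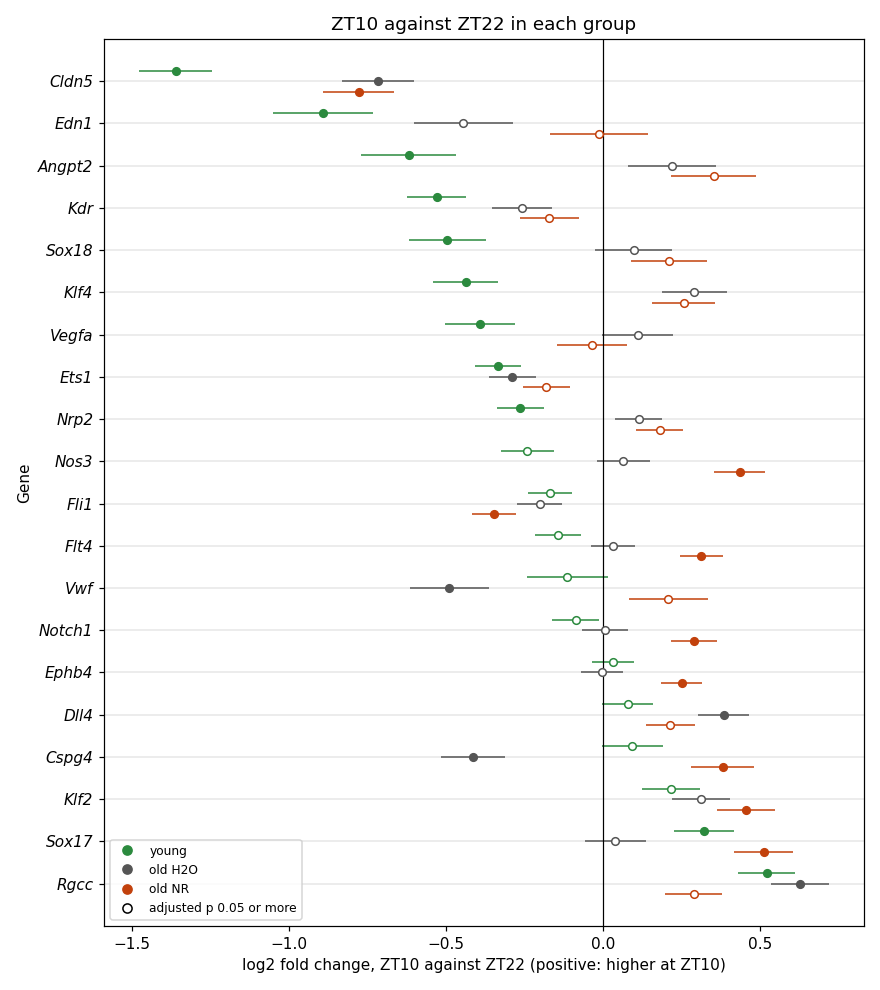
Log2 fold change of ZT10 against ZT22 (x axis, bars are the standard error) in young, old H2O and old NR hearts for the 20 genes called in at least 1 of the 3 groups (y axis). Cldn5 lies at -1.36 in young, -0.72 in old H2O and -0.78 in old NR, and Rgcc lies above 0 in all groups.

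Other mural genes were set beside Cspg4, together with Pdgfb, the endothelial ligand of the mural receptor Pdgfrb, 10 genes in all. Over all genes tested, 2.92% were lower in old H2O than in young at ZT10 and 1.9% in old NR. At ZT22 these shares were 6.17% and 6.58%. Of the 10 genes, 4 were lower in old H2O than in young at ZT10. Among them were Pdgfrb (-0.38), the receptor by which pericytes are recruited, Notch3 (-0.37), the Notch receptor of mural cells, and Vtn (-0.33). In old NR at ZT10 1 was lower than in young, Pdgfrb (-0.31). At ZT22 4 were lower in old NR than in young, among them Vtn (-0.45), Pdgfb (-0.42) and Notch3 (-0.36). In old H2O at ZT22, where Cspg4 was not called, 2 were lower, Vtn (-0.43) and Pdgfb (-0.34). Between old NR and old H2O, 0 were called at ZT10, 1 was lower at ZT22, Mcam (-0.30), and 0 were called for the interaction of NR and time. Their summed level ran at ZT10 from 742 to 759.6 CPM in young, from 616 to 662 in old H2O and from 701 to 708 in old NR, without overlap. At ZT22 it ran from 718 to 774 in young, from 641 to 667 in old H2O and from 569 to 622 in old NR, again without overlap. Of the 5 smooth muscle markers, 2 were lower in old H2O at ZT10, and at ZT22 1 was lower and 1 higher in old H2O and 1 lower in old NR. Between old NR and old H2O, 0 of the 5 were called at ZT10 and 2 were lower at ZT22, and 1 was called for the interaction of NR and time. The summed smooth muscle markers, Smtn being the most abundant, were at ZT22 506, 580.1 and 567 CPM in the old H2O and 476, 453 and 435 in the old NR hearts. Their part in the Cspg4 counts was not tested.

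Of all genes tested, 6.17% were lower and 7.96% higher in old H2O than in young at ZT22, and 6.58% and 7.6% in old NR. At ZT10 these shares were 2.92% and 2.95% in old H2O and 1.9% and 2.38% in old NR. The median difference of all genes at ZT22 was -0.00 in old H2O and 0.01 in old NR. Among 27 other endothelial genes, 9 were lower and 0 higher in old H2O than in young at ZT22, and 11 lower and 1 higher in old NR. The medians of the 27 were -0.20 and -0.22. The largest differences in old H2O were those of Btnl9 (-0.43), Ushbp1 (-0.41) and Kank3 (-0.40), and in old NR those of Btnl9 (-0.65), the lectin-like receptor Cd93 (-0.43) and Kank3 (-0.42). At ZT10, 1 was higher and 2 lower in each old group, and none was called between old NR and old H2O at either time. Cd36 was the most abundant of them. The sum of the 27 at ZT22 ran from 4591 to 5061 CPM in young, from 4153 to 4538 in old H2O and from 4000.1 to 4546 in old NR. By this sum the young hearts lay above all old ones. Which cells of the heart the Cd36 counts came from was not tested. Of 11 other Notch genes, which include Notch3 of the mural genes, 1 was lower in old H2O than in young at each time, and in old NR 0 at ZT10 and 2 at ZT22. Notch4, an endothelial Notch receptor, was lower at ZT22 in old H2O (-0.57) and in old NR (-0.57). Of 12 other genes of VEGF and hypoxia, 1 was higher and 2 lower in old H2O at ZT22 and 2 higher and 2 lower in old NR. The ligand Vegfd was higher at ZT22 in both (1.56 and 1.56), Pgf lower (-0.73 and -0.73) and the oxygen-sensing hydroxylase Egln3 lower (-0.55 and -0.73), whereas at ZT10 Egln3 was higher (0.46 and 0.50). A list of 8 other genes of nitric oxide and endothelin signalling includes Cav1, which is also 1 of the 27 endothelial genes. Of these 8, 1 was higher in old H2O than in young at ZT10, and 1 was higher and 1 lower at ZT22. In old NR 1 was higher at ZT10, the endothelin receptor Ednrb (0.33), and 2 were lower at ZT22, Ednra (-0.41) and Gucy1b1 (-0.20), a subunit of the nitric oxide receptor. The endothelin receptor Ednra was higher in old H2O than in young at ZT10 (0.50) and lower at ZT22 (-0.36).

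Markers of other cell types were called as well. Of all genes tested, 7.96% were higher and 6.17% lower in old H2O than in young at ZT22, and 0.35% were called between old NR and old H2O. Of 7 macrophage markers, Mrc1 being the most abundant, 6 were higher in old H2O than in young at ZT22, 1 was higher in old NR than in young and 3 were lower in old NR than in old H2O. Their sums at ZT22 were 296 to 356 CPM in young, 441 to 486 in old H2O and 333 to 351 in old NR. At ZT10, 2 were higher in old H2O than in young, 0 were called in old NR against young and 0 between old NR and old H2O. Of 7 fibroblast markers, Dcn being the most abundant, 2 were higher and 1 lower in old H2O than in young at ZT22 and 3 lower in old NR, and at ZT10 1 was lower in old H2O and 3 in old NR. Old NR lay below old H2O for 1 fibroblast marker called at each time. Their part in the lower endothelial counts was not tested.

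Across both old groups, 12 of the 45 genes were lower in all 6 old hearts than in the 3 young hearts at ZT10 (6.64% of all genes tested) and 2 were higher, Flt4 and Angpt2 (6.29%). At ZT22, 12 were lower (7.42%) and 0 higher (8.17%). The 12 at ZT22 were Pecam1, Cldn5, Nrp2, Tek, Tie1, Nos3, Ephb4, Fli1, Klf2, Klf4, Fabp4 and Car4, and Tek, Tie1, Fli1, Fabp4 and Car4 were among the 12 at ZT10 too, with Cdh5, Flt1, Aplnr, Ets1, Gpihbp1, Rgcc and Cspg4. This count was chosen after the values were seen and carries no test. Under the other normalisations and models between 37 and 39 of the 45 genes lay below 0 in old H2O at ZT22 and 42 or 43 in old NR. Of the 45 genes, 32 were called in at least 1 of the 11 comparisons (31.9% of all genes tested), and 13 in none.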

How the data were processed

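RNA of 18 mouse hearts (6 groups of 3, stranded mRNA libraries) and of HL-1 cultures was sequenced by the authors. For the hearts, per the labels, reads were trimmed with Trimmomatic 0.39, aligned to mm10 with STAR 2.7.10a, stripped of duplicates with Picard 3.0.0 and of reads mapped to several places, and counted per gene with featureCounts 2.0.4. The authors deposited a table of counts and a table of normalised values, a score made by dividing the counts by a size factor. The table named as normalised holds the counts (totals from 3922137 to 7562215, size factors from 0.68 to 1.44) and was used as such. The other (size factors from 1.01 to 1.01) was used for gene symbols only. Removing duplicates from single-end reads can lower the counts of densely covered genes. The strand setting of the counting is not given in the sources used here. For HL-1 cells the counts deposited by the authors were used.

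Of 20764 genes, the 15443 whose mean count exceeded 5 were fitted in R 4.3.3 with edgeR 4.0.16 (limma 3.58.1), TMM normalisation and the quasi-likelihood F-test, two-sided, in 1 fit of all 18 hearts with 1 mean per group, and p-values were adjusted by the Benjamini-Hochberg method over all genes tested in each of 11 comparisons. The fit was tested on simulated data with 200 changed genes, whose median fitted change was 0.99 for old H2O against young at ZT22. It recovered 166 of them with 14 false calls there. For old NR against old H2O at ZT22 it recovered 159 with 14 false calls, and for the interaction of age and time 145 with 11. The median size of the differences from young at ZT22 in the 45 genes was 0.20 and 0.23, so recovery of differences this small was not tested. Exon lengths and coordinates came from GENCODE on the same build. Alternatives were DESeq2 1.42.0, its size factors, no filter or filterByExpr, only the groups compared, the library total as a covariate, the replicate number as a block, and leaving out each heart. All 45 genes could be named, and values in every heart of at least 1 comparison that called the gene are given for 30 of the 32 called in any comparison, those with the smallest adjusted p. Of the other lists, up to 3 called genes with the largest differences are named. The genes, lists and comparisons were chosen with earlier results of these data known. The number of 3 hearts per group limits the precision. Each p-value sets a difference against the spread between hearts within groups, estimated over all 18 hearts with information shared between genes.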

Additional observations from a re-analysis of the deposited data

Results flagged for a closer look

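The age difference (old H2O against young, log2) at ZT10 minus that at ZT22 was tested as an interaction in edgeR, with Benjamini-Hochberg adjustment over all genes, and drew attention for 6 of the 45 genes. It was 0.84 for Angpt2, 0.73 for Klf4, 0.64 for Cldn5, 0.59 for Sox18, 0.38 for Nrp2 and -0.51 for Cspg4. For Klf4 it was kept in 12 of 12 fits that left out 1 heart, for Angpt2 in 11, for Cldn5 in 9, for Sox18 and Cspg4 in 4 and for Nrp2 in 3. In the first 5 the age difference lay below 0 at ZT22 and above 0 at ZT10, and in Cspg4 it was lower at ZT10. The NR difference (old NR against old H2O) at ZT10 minus that at ZT22 differed by the same test for Cspg4, by 0.79, kept in 11 of 12 fits. No explanation was tested for these differences.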

How the results depend on the processing

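Of 83 calls of single genes, 81 were kept with DESeq2's size factors in edgeR, 64 with DESeq2, 55 with only the groups compared, 83 with filterByExpr, 78 without a filter, 82 with the library total as a covariate and 83 with a replicate block, and 346 of 540 were kept over the fits that left out 1 heart. None changed its direction in these fits. The counts of genes called moved by more than 1.5 times as follows, and the cause was not tested. For old H2O against young, 6 at ZT10 became 10 with only the groups compared and 11 with the covariate, and 16 at ZT22 became 10 with DESeq2 and 4 with only the groups compared. For old NR against old H2O, 0 at ZT10 became 2 with only the groups compared, and 1 at ZT22 became 0 with only the groups compared, 2 with the covariate and 2 with the replicate block. For old NR against young, 4 at ZT10 became 2 with DESeq2, 7 with only the groups compared and 7 with the covariate, and 23 at ZT22 became 12 with only the groups compared. The 11 genes between times in young became 17 with the covariate, and the 1 interaction of NR and time became 2 with the covariate and 2 with the replicate block.

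Leaving out 1 heart, the counts ran from 3 to 5 and from 5 to 15 for old H2O against young at ZT10 and ZT22, from 0 to 0 and from 0 to 1 for old NR against old H2O, and from 1 to 3 and from 10 to 23 for old NR against young. Between times they ran from 9 to 10 in young, from 3 to 6 in old H2O and from 5 to 12 in old NR, from 2 to 8 for the interaction of age and time and from 0 to 2 for that of NR and time. Counts moved by more than 1.5 times without these hearts. For old H2O against young they were young hearts 1 and 3 at ZT10 (3 each), and at ZT22 young heart 3 (5) and young heart 1, old H2O heart 2 and old H2O heart 3 (6 each). For old NR against old H2O at ZT22 they were old H2O heart 2 and old NR heart 2 (0 each). For old NR against young they were at ZT10 young heart 3 (1), young heart 1 and each old NR heart (2 each), and at ZT22 old NR heart 2 (10), young heart 3 and old NR heart 3 (12 each) and young heart 1 (15). Between times they were old H2O hearts 1 and 3 at ZT10 (3 each) and old NR heart 3 at ZT22 (5). For the interaction of age and time they were young heart 2 at ZT10 and young heart 3 at ZT22 (2 each), and young heart 3 at ZT10, old H2O hearts 1 and 3 at ZT10 and old H2O heart 2 at ZT22 (3 each). For that of NR and time they were old H2O heart 3 at ZT10 (0) and old H2O heart 1 at ZT22 (2). Same-numbered hearts share only a number: the correlations of their deviations lay between -0.06 and 0.17 over the comparisons and were not all above 0.1 in any, so they were not taken as pairs. Library totals of 3922137 to 7562215 counts and 3 hearts per group limit what could be called.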
